A study of Drosophila melanogaster with 2 samples.

Results

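The Cpr genes encode structural proteins of the insect cuticle. All protein-coding genes of the fly annotation whose symbol starts with Cpr and a digit were taken as members, which gave 70 genes of 13968 on the major chromosome arms. Arm 3L held 35 of them, 2R held 21, 2L and 3R held 5 each and X held 4. Few of them lay near a CG4360 peak. A summit in the stricter of the lists made from both replicates lay at most 500 bp from any transcript start for 1 Cpr gene, Cpr73D, against 15.9% of all genes. It lay within 2 kb of the gene body for 4, Cpr31A, Cpr35B, Cpr65Az and Cpr73D, against 31.2%. The gap in percentage points was smaller among short genes with 1 start, with 0 and 3 of 51 Cpr genes against 6.75% and 17.9%. Calls of any strength lay within 2 kb of 91.4% of Cpr genes, close to the 92.9% of all genes.

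The data were chromatin immunoprecipitation sequencing (ChIP-seq) peak lists from whole Drosophila melanogaster embryos, 0 to 24 h of age, with 2 biological replicates of 1 group. The flies, labelled strain CG4360-GFP, were transgenic for the zinc finger gene CG4360 fused to eGFP, and the fusion protein was pulled down with an antibody against GFP after sonication to 200 to 800 bp. What drives the fusion gene is unknown here (not given in the sources used here), and neither an untagged strain nor the control library named in the labels was analysed here. A whole embryo of this age range mixes all tissues and stages, so a site bound in few cells and a site bound weakly in many cannot be told apart. The conservative list, made from both replicates, held 5697 peaks and the pooled list, also made from both, held 6198. Replicate 1 alone had 4519 peaks and replicate 2 had 3682. A peak here is an entry of a thresholded list, and these entries have an irreproducible discovery rate (IDR, the expected share of calls whose rank does not repeat) of at most 0.01. The longer ranked lists, with 128147 calls for the conservative comparison, hold the peaks and the calls that missed this value. In the conservative comparison they also hold 176 calls on the major arms that met it without being in the peak list.

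Insect cuticle is a layered material of chitin fibres and proteins that epidermal cells secrete, first late in embryonic life and again before each moult. Cpr proteins carry the Rebers-Riddiford consensus, a sequence that binds chitin, and the digits and letters of each gene name give its position on the polytene chromosome map, so genes with like names are neighbours. Genes of this kind are known to be switched on in short pulses in the epidermis under the control of ecdysone-responsive nuclear receptors. No expression was measured here.

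The sequences below are those the results turn on, taken from the RefSeq release 6 assembly and written 5′ to 3′ on the strand of the named Cpr gene. Capitals mark CAACAAC or its reverse complement GTTGTTG, the word that earlier analysis of these data found most often at summits, and, in promoters alone, TATAAA on the strand of the gene. The first set covers 75 bp to each side of the summit at 3 of the 4 Cpr genes with a nearby conservative peak, and shows that the word stood under 1 of them. The summit at Cpr73D lay in transcribed leader sequence and is not shown.
Cpr31A peak (chr2L:10057410-10057560, plus strand): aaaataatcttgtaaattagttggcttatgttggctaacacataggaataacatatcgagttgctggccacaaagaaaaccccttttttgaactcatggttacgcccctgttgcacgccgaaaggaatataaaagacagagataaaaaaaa
Cpr35B peak (chr2L:14423672-14423822, minus strand): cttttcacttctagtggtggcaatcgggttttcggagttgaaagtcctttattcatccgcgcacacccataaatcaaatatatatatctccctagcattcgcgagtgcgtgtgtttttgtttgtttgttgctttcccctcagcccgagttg
Cpr65Az peak (chr3L:6162596-6162746, plus strand): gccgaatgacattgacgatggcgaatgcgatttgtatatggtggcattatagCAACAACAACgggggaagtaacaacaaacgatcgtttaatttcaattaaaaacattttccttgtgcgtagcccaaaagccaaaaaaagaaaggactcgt

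The second set shows the 250 bases before the gene start for members without a conservative peak within 2 kb. In the first 4 the word stood in the promoter, and the last had the strongest relaxed call at a start. The summit of that call lay 213 bp downstream of the start, outside the bases printed. These 5 were chosen among those that also hold TATAAA on the strand of the gene. Cpr49Ae and Cpr51A hold both the word and TATAAA too, and are not shown. Cpr78Cb and Cpr50Ca, which hold the word, and Cpr78Ca, with the second strongest relaxed call, do not hold TATAAA on that strand.
Cpr66Cb (chr3L:8336422-8336671, plus strand): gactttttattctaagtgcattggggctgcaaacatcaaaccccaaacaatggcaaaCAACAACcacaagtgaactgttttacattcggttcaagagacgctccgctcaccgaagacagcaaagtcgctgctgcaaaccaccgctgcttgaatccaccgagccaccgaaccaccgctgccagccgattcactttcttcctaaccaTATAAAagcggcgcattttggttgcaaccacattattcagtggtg
Cpr76Ba (chr3L:19518333-19518582, minus strand): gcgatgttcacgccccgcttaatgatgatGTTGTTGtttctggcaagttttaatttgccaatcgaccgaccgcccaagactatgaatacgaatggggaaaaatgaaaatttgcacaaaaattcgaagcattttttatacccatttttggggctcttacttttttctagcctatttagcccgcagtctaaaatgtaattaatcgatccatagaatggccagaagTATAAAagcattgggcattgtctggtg
Cpr100A (chr3R:30867271-30867520, plus strand): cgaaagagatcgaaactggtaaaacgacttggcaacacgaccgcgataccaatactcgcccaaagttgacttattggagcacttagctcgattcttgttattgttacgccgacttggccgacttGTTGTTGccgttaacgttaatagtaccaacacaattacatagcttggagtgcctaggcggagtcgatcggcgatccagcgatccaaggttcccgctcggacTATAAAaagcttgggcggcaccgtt
Cpr11B (chrX:12552874-12553123, plus strand): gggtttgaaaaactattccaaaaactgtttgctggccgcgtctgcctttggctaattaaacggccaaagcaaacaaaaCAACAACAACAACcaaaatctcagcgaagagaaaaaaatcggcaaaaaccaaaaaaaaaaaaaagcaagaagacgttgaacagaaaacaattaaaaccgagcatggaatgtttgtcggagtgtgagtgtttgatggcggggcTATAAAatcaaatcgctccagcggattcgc
Cpr67Fb (chr3L:10893923-10894172, plus strand): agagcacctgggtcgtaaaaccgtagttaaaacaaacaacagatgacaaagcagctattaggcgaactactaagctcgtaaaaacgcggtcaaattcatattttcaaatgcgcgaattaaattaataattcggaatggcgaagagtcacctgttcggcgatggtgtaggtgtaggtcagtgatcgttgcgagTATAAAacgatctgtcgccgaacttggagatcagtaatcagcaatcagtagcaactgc

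A conservative summit stood within 500 bp of a start for 1 of the 70 Cpr genes (1.43%), against 15.9% of all protein-coding genes. Within 2 kb of the gene the count was 4 of 70 (5.71%), against 31.2%. In the pooled list 0 Cpr genes had a summit at a start, where 17.1% of all genes had one, and 3 had one within 2 kb, against 33.5%. Replicate 1 alone gave 0 at a start, against 13.2%, and 3 within 2 kb, against 26.6%. Replicate 2 alone gave 0 at a start, against 10.6%, and 1 within 2 kb, against 22.4%. In each of these lists the share among Cpr genes was below that among all genes. The counts come from 1 list each, so they carry no replicate error and no test was made.

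**Figure D1:**
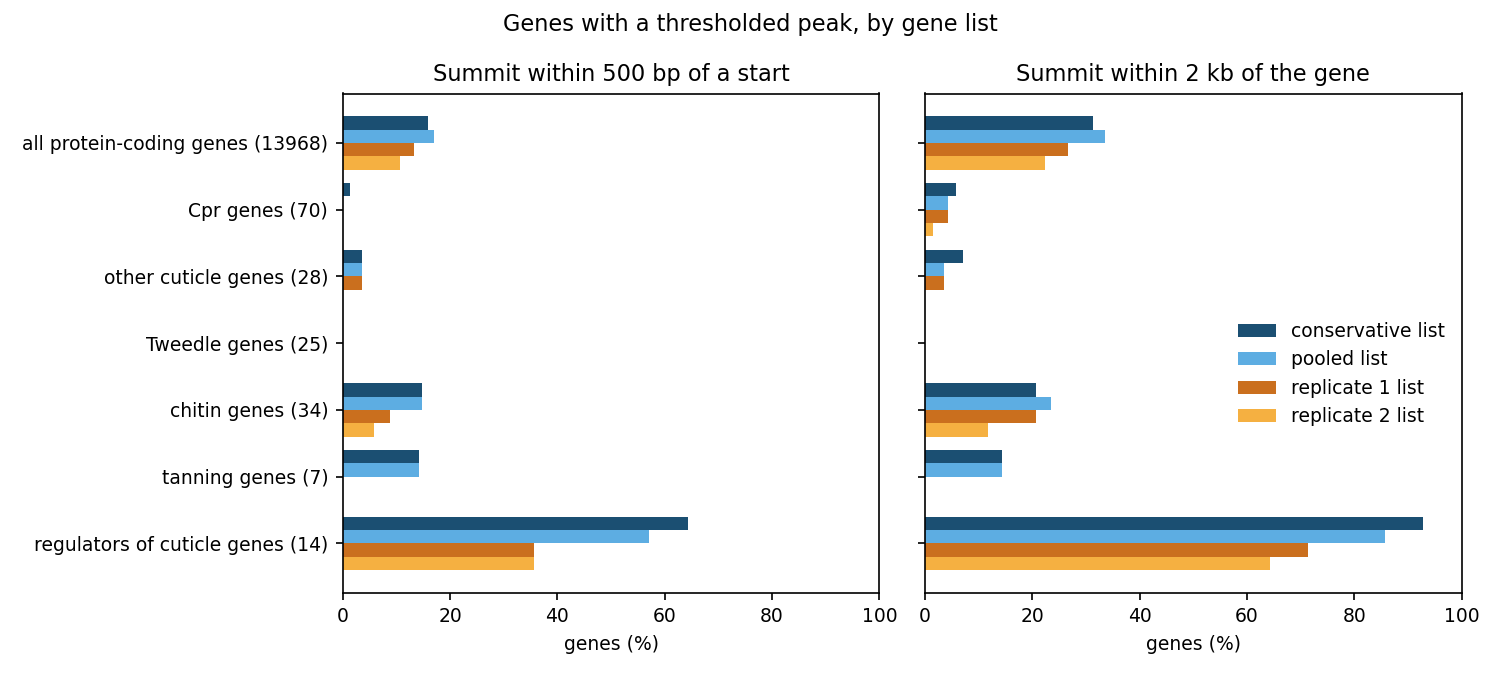
Share of genes (%) whose summit lies at most 500 bp from any start (left) and within 2 kb of the gene (right). Bars give the conservative, pooled, replicate 1 and replicate 2 lists, and the number of genes in each list stands in brackets. Cpr genes reached 1.43% at starts in the conservative list and 0 in the other lists, while all protein-coding genes lay between 10.6% and 17.1%.

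Cpr genes were short and mostly had a single start, so fewer bases and starts were counted for each. Their median length was 1093.5 bp, from 457 bp to 18590 bp, against 2164.5 bp for all genes, and 63 of the 70 had a single annotated start, as did 73.5% of all genes. None of those 63 had a conservative summit there, where 10.8% of all genes with 1 start did. Genes with 1 start and a length of at most 1894 bp, the upper quartile of the Cpr genes, were also set side by side, a choice made after the data were seen. Of 51 such Cpr genes 0 had a summit at the start and 3 had one within 2 kb, against 6.75% and 17.9% of all such genes. The gap to all genes, in percentage points, was thus smaller among short genes with 1 start, while the Cpr count at the start was 0.

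Near-identical gene copies share reads, and how such reads were treated is unknown here. The 2 genes Cpr65Ax1 and Cpr65Ax2 stood apart in this respect, with 23.8% and 27.9% of the 32-base words around their starts found once in the assembly. Calls there are uncertain, and neither gene had a call at its start. Cpr67Fa1 and Cpr67Fa2 followed with 92.5% and 94.5%, and the other members were at 99.2% or above. Among all genes 4.07% had under 90% of such words, and among Cpr genes 2.86% did.

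Cpr73D, the only member with a conservative summit at a start, lay on 3L and was also the longest member, at 18590 bp with 2 starts. Its peak spanned 16957312 to 16957701 of 3L in dm6, with the summit at 16957507, 182 bp inside the gene. The summit was 68 bp from the start of Ogdh, which encodes a subunit of the 2-oxoglutarate dehydrogenase of the citric acid cycle, and lay in the 5′ UTR of both genes. Its signal value, the authors' measure of peak strength, was 63.0, at rank 4883 of 5697. The replicates' own ranked lists held a call there with signals of 35.2 in replicate 1 and 28.3 in replicate 2, and −log10 IDR values of 0.827 and 0.803. Neither reached the value of 2 that the threshold asks for. In the conservative comparison the site had a −log10 IDR of 2.11 and in the pooled one 1.76, so it stood just inside the first threshold and just outside the second.

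Cpr31A on 2L had the peak that repeated best. It spanned 10057290 to 10057679 and its signal was 100.3, at rank 2975. The replicates gave signals of 49.9 and 56.4, and Cpr31A was the only Cpr gene with a peak in both replicate lists. The summit, at 10057485, lay 3272 bp downstream of the Cpr31A start and beyond the end of that gene, in an intron of Pen, which encodes an importin alpha, and 585 bp from a Pen start.

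At Cpr65Az, the last gene of the 65A cluster on 3L, the summit stood 1857 bp downstream of the start, beyond the end of the gene. The peak spanned 6162476 to 6162865, with a signal of 101.9 at rank 2912. Replicate 1 had a peak with a signal of 57.3. Replicate 2 had a call of 43.3 whose −log10 IDR of 1.99 fell just short. The site was 431 bp from the start of the noncoding gene lncRNA:CR45744 and 456 bp from that of Prdm13, a PR domain zinc finger gene. As printed above, it held the word as CAACAACAAC, a run that contains 2 overlapping matches.

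The Cpr35B peak on 2L, from 14423552 to 14423941, was the only one whose nearest start was that of the Cpr gene itself. Its summit lay 1442 bp downstream of that start in intergenic sequence. The signal was 82.4, at rank 3711, with 47.4 in replicate 1, a peak, and 27.9 in replicate 2, where the −log10 IDR was 0.539. All 4 signals were below the median of the conservative list, 103.9, and that at Cpr73D was also below its lower quartile of 72.2. At the starts of all genes with a conservative summit the median signal was 119.8. No CAACAAC stood within 50 bp of the summit at Cpr31A, Cpr35B or Cpr73D.

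Below the threshold the Cpr genes were not empty. A ranked call of the conservative comparison lay at a start in 50 of 70 (71.4%), against 77.4% of all genes, and within 2 kb in 64 of 70 (91.4%), against 92.9%. The windows of 2 kb around the Cpr genes, 370.3 kb in all, held 969.4 calls per Mb, and those around all genes held 1015 per Mb. The same windows held 10.8 conservative peaks per Mb at Cpr genes and 48.7 at all genes. Of the calls in these windows 1.11% were peaks at Cpr genes, against 4.80% at all genes. The density of calls was thus close in both, and the density of peaks was not.

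The calls at Cpr genes had lower signal values. The best call at a start had a median signal of 25.3 over the 50 Cpr genes with a call (lowest 4.19, highest 63.0), and 35.4 over 10807 genes in all. Within 2 kb the medians were 34.3 over 64 Cpr genes and 48.9 over 12980 genes. These medians leave out genes without a call. At starts the best call was taken over every start of a gene. A single start was annotated for 63 of the 70 Cpr genes and for 73.5% of all genes. The windows of 2 kb held a mean of 6.06 calls per Cpr gene and 11.8 per gene over all genes, so the best of them was taken over fewer calls at Cpr genes. A call with an IDR of at most 0.1 lay within 2 kb of 13 Cpr genes (18.6%), against 52.3% of all genes. The other 9 of these, beside the 4 with a peak, were Cpr30F, Cpr65Ay, Cpr65Ec, Cpr66D, Cpr67Fa2, Cpr67Fb, Cpr76Ba, Cpr76Bb and Cpr76Bc. Neighbours can share a call, as Cpr67Fa2 and Cpr67Fb did.

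The replicates' own ranked lists gave calls at about the same number of Cpr starts. Replicate 1 had a ranked call at 36 starts, against 67.4% of all genes, and replicate 2 at 35, against 67.5%. Both had one at 23 Cpr genes (32.9%), against 56.2% of all genes. A call in 1 replicate alone was seen at 25 Cpr genes (35.7%), against 22.6%, and in neither at 22 (31.4%), against 21.3%. The median signal of the best call at a start was 18.2 in replicate 1 and 14.7 in replicate 2 for Cpr genes, and 21.2 and 21.0 for all genes. Genes with several starts had more windows in which a call could fall, and these values were not split by number of starts.

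The strongest calls at a start among members without a nearby peak were those of 5 genes. Cpr67Fb led with a signal of 58.8, where replicate 1 had 29.1 and replicate 2 had 19.96. Cpr78Ca had 51.0, with 24.3 and 18.6 in the replicates. Cpr76Bc had 49.8, with 26.3 and 22.3. In Cpr30F, at 46.5, replicate 2 was the higher one, with 25.02 against 22.97. Cpr78Cb had 38.9, with 20.5 and 20.04. Their −log10 IDR values ran from 0.912 at Cpr78Ca to 1.47 at Cpr30F, short of 2. Of the 176 calls that reached 2 but were absent from the conservative list, 0 lay within 2 kb of a Cpr gene.

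At the other end, 6 members had no call within 2 kb in the conservative comparison. They were Cpr49Aa, Cpr49Ab, Cpr49Ag, Cpr65Au, Cpr65Ax1 and Cpr97Eb. Of these, Cpr65Au, Cpr65Ax1 and Cpr97Eb also had none in either replicate's own list, and Cpr65Ax1 was the gene with the fewest single words. Cpr50Ca, the second longest member at 17888 bp, had the most calls, 23, and its best signal was 37.3.

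**Figure D2:**
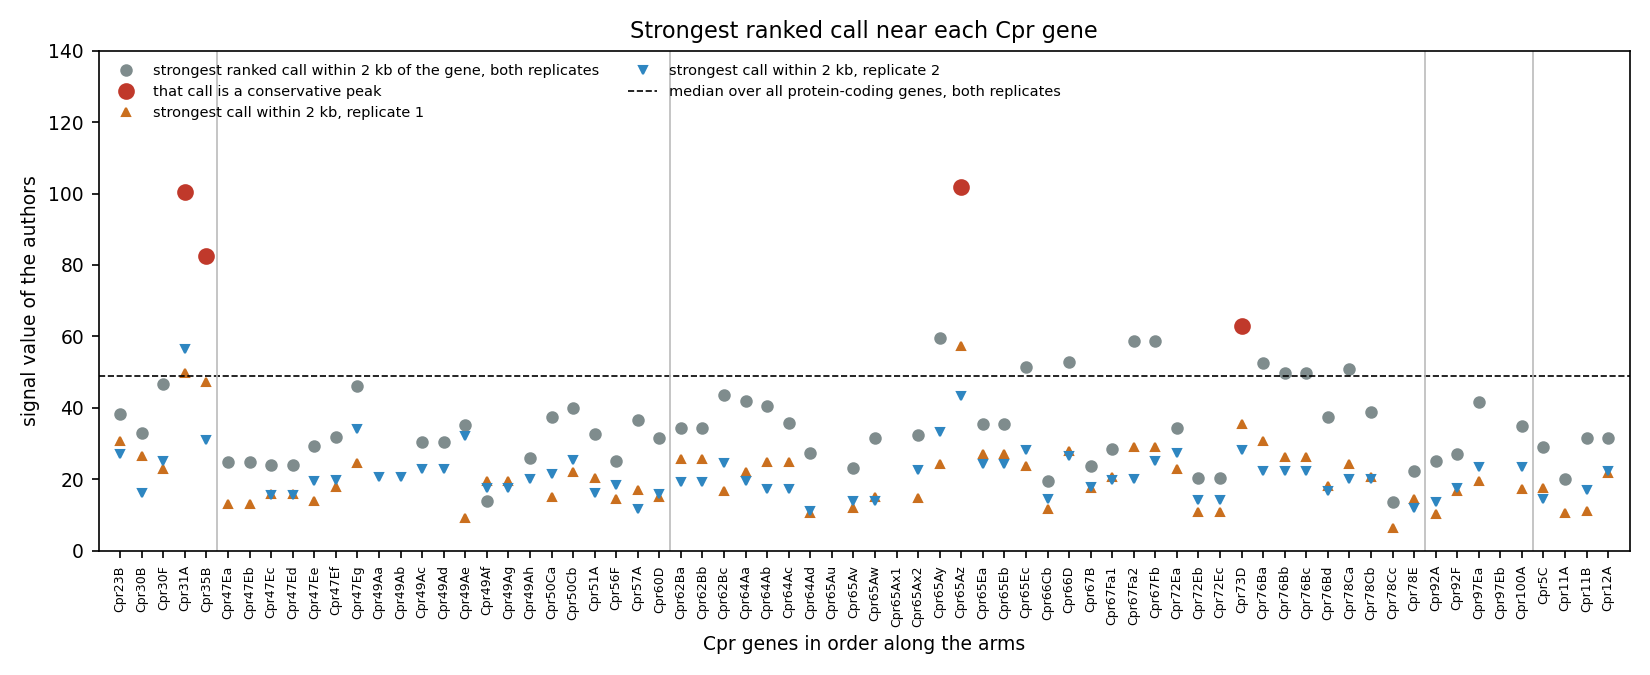
Signal of the strongest ranked call within 2 kb of each of the 70 Cpr genes, in order along the arms (thin vertical lines separate arms). Large points mark the 4 genes whose call is a conservative peak, triangles give the strongest call in each replicate's own list, and the dashed line is the median of 48.9 over all protein-coding genes with a call. Most Cpr genes lie under that line, and only 1 lies above 100.3, at 101.9.

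Most Cpr genes stood in groups. With neighbours joined when at most 20 kb apart, 49 genes formed 12 clusters and 21 stood alone. A conservative summit lay within 2 kb of 3 of the 21 single genes (14.3%) and of 1 of the 49 clustered genes (2.04%), against 31.2% of all genes. The 3 single genes were Cpr31A, Cpr35B and Cpr73D, the longest member. These counts are small and were not tested. The exception among the clustered genes was Cpr65Az at the edge of its cluster. In 10 of the 12 clusters no conservative summit fell anywhere between the first and the last gene.

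Cpr49Aa to Cpr49Ah on 2R was the largest cluster, with 8 Cpr genes over 38.5 kb, and the conservative summits on either side of it were 92.9 kb apart. It had 7 ranked calls, the strongest at 35.3. Cpr65Au to Cpr65Az on 3L held 7 Cpr genes, with 11 other genes between them, most of them of the Lcp65A type of larval cuticle protein, and its flanking summits were 37.8 kb apart. Cpr64Aa to Cpr64Ad, also on 3L, held 4 genes in a stretch of 56.7 kb without a summit.

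The 4 genes from Cpr76Ba to Cpr76Bd on 3L lay in the longest such stretch around a Cpr cluster, 265.2 kb. Only 0.44% of the gaps between neighbouring conservative summits in the genome were as long or longer. The stretch around the 3 genes from Cpr72Ea to Cpr72Ec on 3L was 152.6 kb. The clusters Cpr62Ba to Cpr62Bc, Cpr67Fa1 to Cpr67Fb and Cpr78Ca to Cpr78Cc, with 3 genes each on 3L, lay in stretches of 52.6 kb, 30.4 kb and 18.0 kb. The pairs Cpr50Ca to Cpr50Cb on 2R and Cpr97Ea to Cpr97Eb on 3R lay in 192.4 kb and 132.0 kb. The median gap in the genome was 6.71 kb, its 90th percentile 53.3 kb and its 95th 88.9 kb. These compare a gap chosen for holding genes with gaps of every kind, since long gaps hold more genes, and are given as a description.

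In both remaining clusters a summit fell between members but more than 2 kb from each of them. In Cpr47Ea to Cpr47Eg on 2R, with 7 Cpr genes, the summit at 11275905 had a signal of 60.1 and stood 619 bp from the start of TpnC47D, a troponin C gene of muscle, and 2540 bp from the start of Cpr47Eg. Replicate 1 had 33.8 there and replicate 2 had 34.1, neither past the threshold. In Cpr65Ea to Cpr65Ec on 3L, with 3 genes, the summit at 7090933 had a signal of 98.7, with 53.3 in replicate 1 and 43.4 in replicate 2. The −log10 IDR there was 2.38 in replicate 1, past the threshold, and 1.07 in replicate 2, short of it. The nearest annotated start of a protein-coding gene was that of Cpr65Eb, 2146 bp away.

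The genes next door to the Cpr genes were counted in the same way. These were the nearest protein-coding genes lying wholly to either side of a Cpr gene or cluster. Genes that overlap one, such as Ogdh at Cpr73D, were left out. Among these 66 genes, 11 (16.7%) had a conservative summit at a start, near the 15.9% of all genes. Within 2 kb 17 (25.8%) had one, against 31.2%. One of the 11 was Prdm13, whose peak is the one near Cpr65Az.

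**Figure D3:**
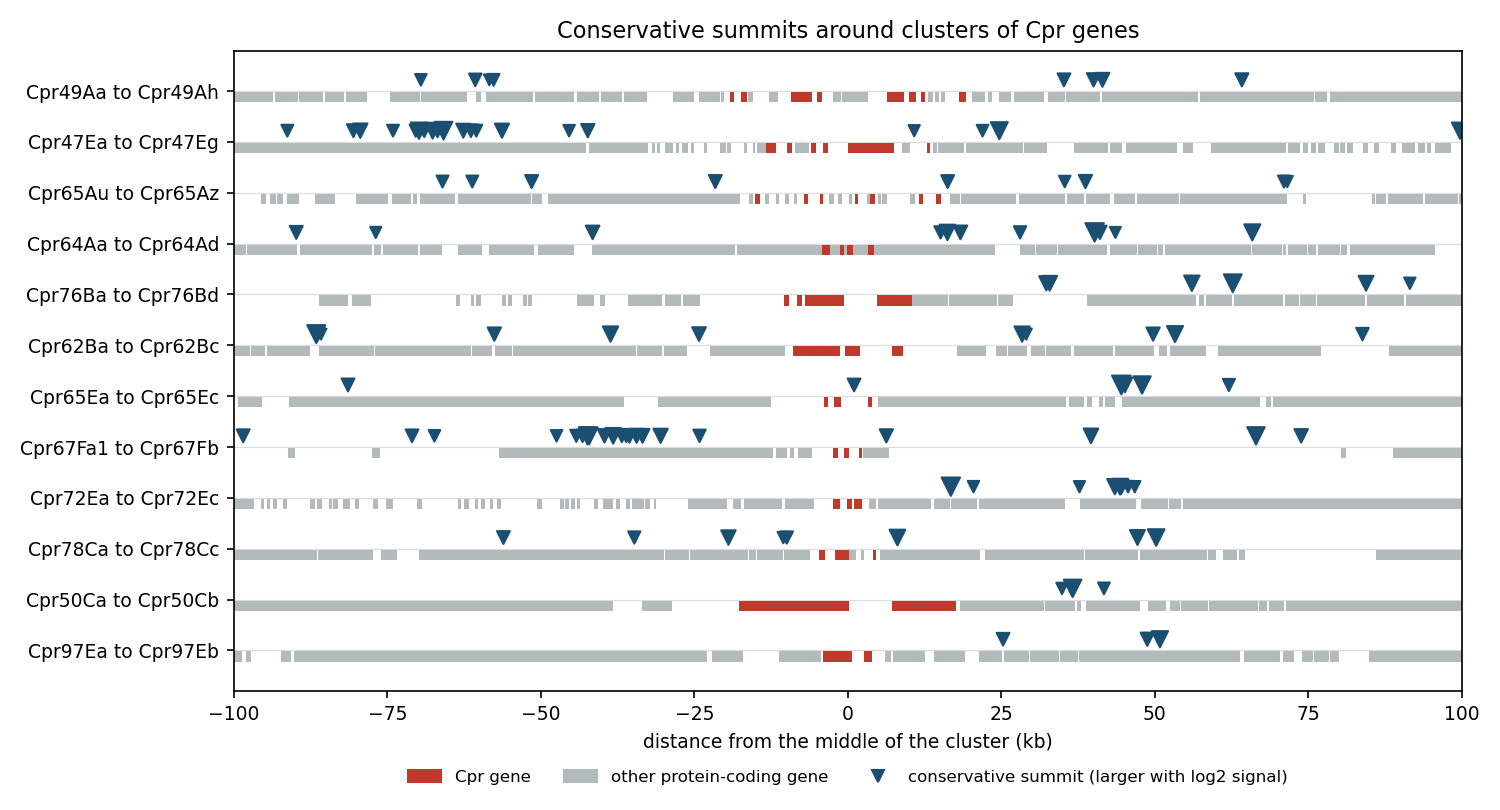
The 12 clusters of Cpr genes, each drawn to scale from the middle of the cluster to 100 kb on either side. Dark bars on the line are Cpr genes, pale bars other protein-coding genes on either strand, and triangles conservative summits, larger with higher signal. Summits lie beside the clusters, and 2 clusters hold 1 between members.

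The distance from a start to the nearest conservative summit needs no window. Its median was 15805 bp over the 70 Cpr genes, with quartiles of 6989.75 bp and 25035 bp and a range from 182 bp to 61723 bp. Over 13945 genes on arms with a summit it was 8174 bp, with quartiles of 1996 bp and 21648 bp. The nearest summit was over 10 kb away for 48 Cpr genes (68.6%) and for 45.1% of all genes. Beyond 20 kb these shares were 37.1% and 27.1%. At the far end the order turned, with a 90th percentile of 40284 bp for Cpr genes and 49178 bp for all genes, and 95th percentiles of 45630 bp and 75353 bp. Cpr78E was the most distant member. The median was 16843 bp for clustered members and 12643 bp for single ones.

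**Figure D4:**
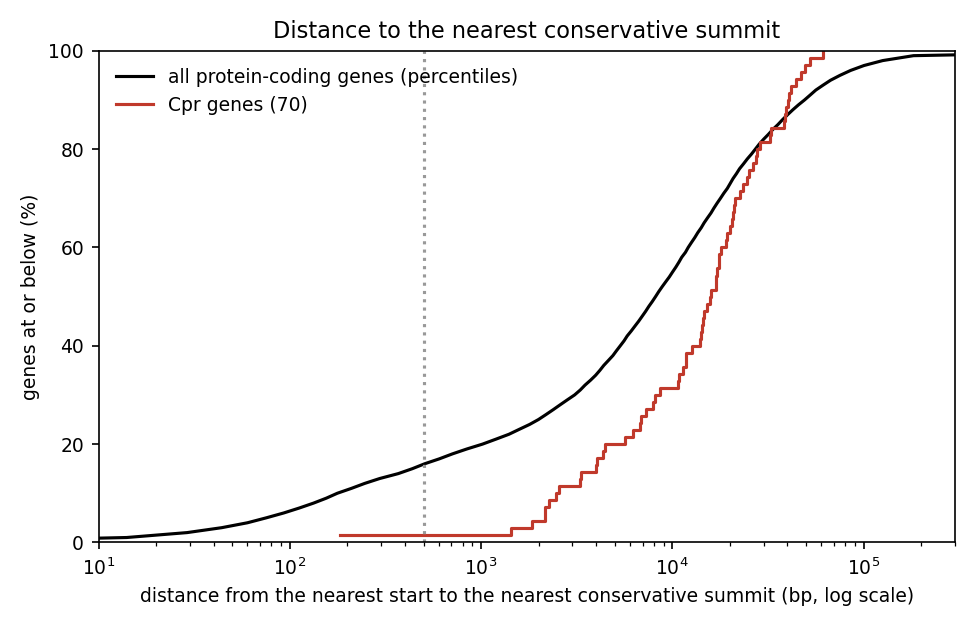
Cumulative share of genes (%) by distance from the nearest of a gene's starts to the nearest conservative summit (bp, log scale), for the 70 Cpr genes and for all protein-coding genes. The dotted line marks 500 bp. The Cpr curve stays at 1 gene until 1442 bp and reaches its median at 15805 bp, against 8174 bp for all genes, and the curves cross, with Cpr genes the nearer at the 90th percentile.

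The same count was made for other genes of the cuticle, on lists chosen by symbol. Of 28 other cuticle genes of the Lcp, Ccp84A, Acp65A and similar kinds, 1 (3.57%) had a conservative summit at a start and 2 (7.14%) had one within 2 kb, against 15.9% and 31.2% of all genes. The first was the larval cuticle protein gene Lcp9, with a signal of 74.7. Of 25 Tweedle genes, which encode a separate family of cuticle proteins, 0 had one at either distance, and their median distance to a summit was 51534 bp. In calls of any strength the families differed. A ranked call of the conservative comparison lay at a start in 42.9% of the other cuticle genes, 88% of Tweedle genes and 71.4% of Cpr genes. Within 2 kb the shares were 57.1%, 100% and 91.4%. Of 34 genes for chitin synthesis, organisation and turnover, 5 (14.7%) had a summit at a start, near the 15.9% of all genes, and 7 (20.6%) had one within 2 kb, against 31.2%. Their strongest were mmy, which makes the UDP-N-acetylglucosamine that chitin is built from, at 228.3, knk, which organises chitin fibres, at 106.3, and the chitinase genes Cht11 at 79.1 and Cht6 at 62.2. Of 7 tanning genes 1 (14.3%) had one at a start, ple, the tyrosine hydroxylase gene, at 59.3, and the same gene was the only one with a summit within 2 kb.

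Known regulators of cuticle genes stood at the other end. Of 14, a conservative summit lay at a start in 9 (64.3%) and within 2 kb in 13 (92.9%), against 15.9% and 31.2% of all genes. The strongest were grh, the epidermal factor Grainyhead, at 845.8, the POU factor gene vvl at 460.0 and the nuclear receptor genes Eip75B at 232.4 and Hr3 at 208.5. These genes are long, with a median of 37521.5 bp, and 2 of the 14 have a single start, so their counts and those of the Cpr genes do not rest on like windows. No share of equally long genes is given here, and the list was chosen with earlier results of these data known. Among the families of cuticle proteins the share within 2 kb was 5.71% for Cpr genes, 7.14% for the other cuticle genes and 0 for Tweedle genes.

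Promoter sequence was read from 250 bases before to 50 bases after the gene start. CAACAAC, on either strand, was in 8 Cpr promoters (11.4%) and in 7.22% of all promoters of this length. The related word CAGCAAC was in 6 (8.57%), against 5.76%. Among all genes with CAACAAC in the promoter 35% had a conservative summit at a start, and among the rest 14.4% did. The word was taken from summits of these same data, so a higher share among genes with it was built into the choice. The 35% also covers genes of every length and number of starts. None of the 8 Cpr genes with the word had a conservative summit at a start. These were Cpr49Ae, Cpr50Ca, Cpr51A, Cpr66Cb, Cpr76Ba, Cpr78Cb, Cpr100A and Cpr11B. Each had a ranked call at the start, as did 71.4% of Cpr genes and 77.4% of all genes.

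The word lay from 80 to 221 bases before the start in these promoters. The best call at the start had a signal of 38.9 at Cpr78Cb, the highest of the 8, and of 6.36 at Cpr49Ae, the lowest. At Cpr11B, whose promoter printed above holds a run with 3 overlapping matches, the signal was 13.2, and replicate 1 had no call there. At Cpr66Cb it was 15.5, with 8.44 in replicate 1 and 10.04 in replicate 2. In the wider windows of 2 kb around the genes the word occurred 108 times at Cpr genes, or 0.292 per kb, against 0.435 per kb at all genes. A conservative summit lay within 50 bp of 2 of these 108 matches (1.85%), both in the run at Cpr65Az, and of 13.0% of the matches at all genes. The summit of a ranked call lay within 50 bp of 16 of the 108 (14.8%), against 27.9% at all genes. Overlapping matches were counted separately.

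Of the 6 words searched, the difference in share was widest for a core promoter word. TATAAA, the TATA box word, was in 49 Cpr promoters (70.0%) on either strand and in 45.8% of all. On the strand of the gene, 35 to 20 bases before the start, it began in 33 Cpr promoters (47.1%) and in 6.99% of all, a window chosen after the data were seen. Among all genes with TATAAA in that place 4.71% had a conservative summit at a start, and among the others 16.7% did. The initiator word TCAGT was in 60.0% and 51.5%, the Grainyhead word AACCNGTT in 5.71% and 4.60%, and the GAGA factor word GAGAGAG in 1.43%, which is Cpr66D alone, and 5.86%. The median GC content of the promoters was 45.5% for Cpr genes and 38.0% for all. A match to these letters is a description of the sequence, and what part promoter type, GC content or gene length has in the low count of peaks was not tested.

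**Figure D5:**
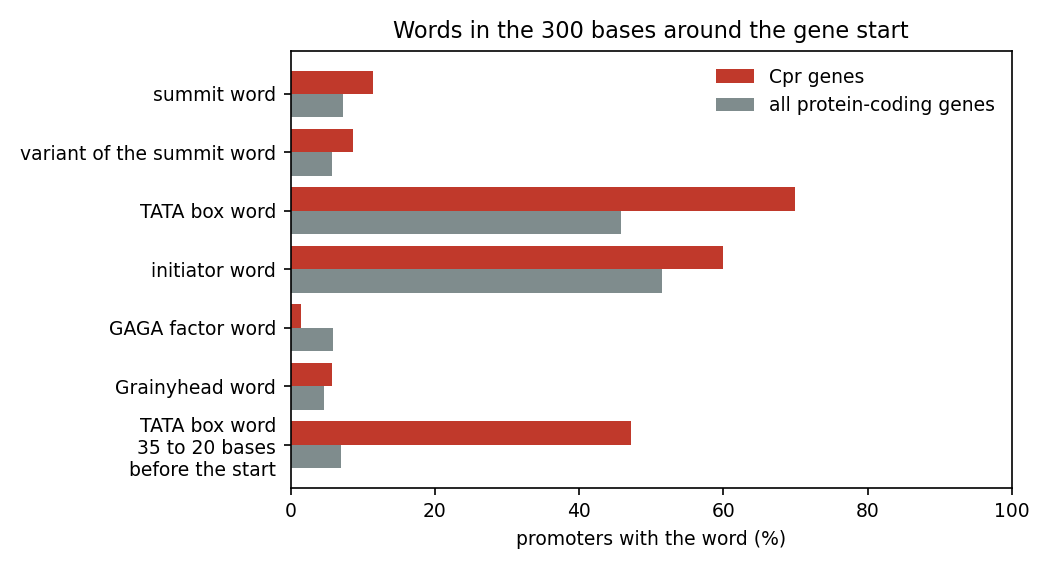
Share of promoters (%) with each word in the 300 bases around the gene start, on either strand, for the 70 Cpr genes and all 13968 protein-coding genes. The summit word is CAACAAC and its variant CAGCAAC, and the last pair of bars is the TATA box word on the strand of the gene that begins 35 to 20 bases before the start, at 47.1% and 6.99%.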

How the data were processed

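Peaks came from anti-GFP ChIP-seq of 2 biological replicates. The authors' pipeline produced ranked and thresholded lists on dm6, per the labels and the readme text. Aligner, caller and read depth are unknown here (not given in the sources used here), so no interval or floor based on reads is given. The signal value of each peak was deposited by the authors on an unstated scale, and was compared within lists. The ranked lists as deposited by the authors also carry −log10 IDR. In these, 8 columns of replicate values, not tied to a replicate by name, were not used, and each replicate's own list was read instead.

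Genes and starts came from Ensembl release 115 on the same assembly. Entries off the major arms were left out of all counts. This kept 5692 of 5697 conservative peaks, 6193 of 6198 pooled peaks and 126636 of 128147 calls of the conservative comparison. Of the entries kept, 0 ran beyond an arm end. Summits were counted within 500 bp of any transcript start and within 2 kb of the gene. Promoters were cut from the RefSeq genome. Words were matched by letters, in Python 3.11.15 with numpy 2.4.6, pandas 2.3.3 and matplotlib 3.10.9, and the counting was tested on planted summits. The genes named were all Cpr genes with a conservative summit, the 5 strongest relaxed calls at starts, up to 4 members per comparison list and every cluster of 3 or more. The genes with a call of IDR at most 0.1, those without calls and those with CAACAAC were named after their values were seen. Members and lists were chosen with earlier results of these data known. No tests were made. Alternatives were other distances, lists, thresholds and gene sets.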

Additional observations from a re-analysis of the deposited data

How the results depend on the processing

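Cpr genes with a conservative summit at a start numbered 1 under 250 bp, 1000 bp, the gene's 5′ end alone, a signal of at least 30 and any base of the peak. They numbered 0 in the pooled list, at an IDR of at most 0.001, among genes with 1 start and among short genes with 1 start. Single replicates gave 0 in both cases. For all genes the share was 9.45% at the stricter IDR, 6.75% among short genes with 1 start, and between 10.6% and 13.2% in single replicates. At up to 1000 bp from the gene the Cpr count was 2, against 26.0% of all genes, and at up to 5000 bp it was 14, against 44.2%. Within 2 kb it was 2 at the stricter IDR, against 20.1%, 7 with any base of the peak, against 32.1%, and 1 to 3 in single replicates, without replicate 1 being the lower, against 22.4% to 26.6%. Among short genes 17.9% of all genes had one. Clusters numbered 12 to 15 for gaps of 5 kb to 50 kb. On the gene strand alone CAACAAC stood in 5.71% of Cpr and 3.60% of all promoters, CAGCAAC in 4.29% and 3.01%, AACCNGTT in 2.86% and 2.78%, and GAGAGAG in 3.41% of all promoters. TATAAA close before the start was in 6.99% of all promoters. The causes of these shifts were not tested beyond what the settings themselves do. No paired analysis was possible because there is 1 group.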
